A study of Mus musculus with 3 samples.

Results

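The 8 genes Cr2, Tnfrsf13c, Vpreb3, Pou2af1, Swap70, Blnk, Spib and Ebf1 encode receptors, signalling proteins and transcription factors of B lymphocytes, and were followed in mouse spleen RNA. They were found by their symbols in the probe annotation of the arrays, which gave 11 of the 16273 probes of the table. Cr2 had 3 probes, Ebf1 had 2 and each of the other genes had 1, and 9 of the 11 were measured on all 3 arrays, with each of the 8 genes holding at least 1 of these. Each two-colour array set cRNA from a purchased mouse spleen total RNA, labelled with Cyanine-5, against cRNA from a purchased universal mouse reference RNA, labelled with Cyanine-3. The reference pools RNA of several cell lines of the mouse. Both RNAs went through 1 round of amplification, and the 3 arrays form 1 group with no treatment, no second tissue and no labelled dye swap. The labels give 1 product number for each RNA, and no strain, age, sex or number of animals is stated in the sources used here. The p-values below therefore measure the spread between 3 arrays, which may be technical. With 1 dye orientation, what the dyes do and what the RNAs do cannot be told apart.

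The deposited value is a signed log ratio, and neither its base nor its numerator is given. Positive values are read here as likely higher in spleen, because spleen carried the red dye and red over green is the usual order, while the titles name the reference first. An earlier reading of these data also used the sign of B cell genes to settle this direction, so the sign of the 8 genes is no independent evidence for it. Each fold is therefore stated for both base 2 and natural logs. In base 10 the value of Cr2 would be an 8208-fold ratio. An exact 0, deposited for 24.2% to 26.8% of the probes of an array, was read as no measurement. The log ratio compares spleen with the pool and is not an expression level in spleen, and in a whole tissue fewer cells of a type and less RNA per cell cannot be told apart.

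B cells recognise antigen through a membrane immunoglobulin whose signal passes from kinases to adaptor proteins such as the product of Blnk. Co-receptors such as Cr2, which binds complement fragments on antigen, lower the threshold for this signal, and the BAFF receptor Tnfrsf13c keeps mature B cells alive. A small set of transcription factors, Ebf1 among them, sets up and maintains the B lineage. The spleen holds large numbers of mature B cells in its follicles and marginal zones.

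The octamer, spelled ATGCAAAT, is a promoter element of immunoglobulin genes at which the product of Pou2af1 acts with octamer-binding proteins. It was searched on both strands, with 5 further motifs, in windows from 250 bases before to 50 bases after each gene start, taken from RefSeq on GRCm38.p6. All 8 genes were matched, with 9 windows, since Ebf1 has 2 starts. The octamer was found in the windows of Vpreb3 and Blnk, 2 of 9, and in 1.74% of all 32851 windows. In Vpreb3 it lies at -45 to -38 from the start and in Blnk at -130 to -123, both times as the reverse complement ATTTGCAT, and no other motif searched overlaps it. The EBF half-sites CCCNNGGG were found in 1 of 9 windows, that of Spib, and in 13.7% of all windows. The 2 matches in Spib, at -65 to -58 and -64 to -57, overlap each other. The core GAGGAA, which PU.1 and Spi-B recognise, was in 3 of 9 windows (Ebf1, Pou2af1 and Swap70) and in 28.3% of all windows. The E box CANNTG was in 8 of 9 windows and in 72.3% of all. The TATA box TATAAA and the NF-kB core GGGACTTTC were in 0 of 9 windows, against 13.6% and 0.353% of all. These matches describe letters in a window and are not binding sites. The windows of Vpreb3 and Blnk are shown because they hold the octamer, with its letters in capitals. That of Spib is shown for the overlapping EBF half-sites, also in capitals. Vpreb3 lies at chr10:75948050-75948349 on the plus strand, Blnk at chr19:40994172-40994471 on the minus strand and Spib at chr7:44532022-44532321 on the minus strand, and each run reads 5′ to 3′ along its gene.
Vpreb3: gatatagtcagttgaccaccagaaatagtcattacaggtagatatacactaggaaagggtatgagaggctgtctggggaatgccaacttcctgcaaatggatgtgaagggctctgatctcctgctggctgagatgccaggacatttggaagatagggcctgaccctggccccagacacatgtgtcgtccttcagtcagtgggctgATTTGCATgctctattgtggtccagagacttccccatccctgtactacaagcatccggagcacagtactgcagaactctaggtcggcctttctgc
Blnk: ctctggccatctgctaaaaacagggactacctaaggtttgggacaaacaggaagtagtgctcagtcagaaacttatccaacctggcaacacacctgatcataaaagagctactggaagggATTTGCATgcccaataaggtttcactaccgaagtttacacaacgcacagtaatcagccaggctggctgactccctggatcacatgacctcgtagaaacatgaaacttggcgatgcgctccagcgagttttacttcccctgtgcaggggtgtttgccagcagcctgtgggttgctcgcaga
Spib: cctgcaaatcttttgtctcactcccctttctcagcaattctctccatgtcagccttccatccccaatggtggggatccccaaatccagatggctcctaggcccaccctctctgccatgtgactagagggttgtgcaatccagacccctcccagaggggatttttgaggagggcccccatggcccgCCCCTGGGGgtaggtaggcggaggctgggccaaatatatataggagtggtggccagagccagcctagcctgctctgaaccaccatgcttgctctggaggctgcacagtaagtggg

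All 8 genes had positive mean log ratios past the test, limma's moderated test against 0 with Benjamini-Hochberg adjustment over 6077 genes. Over all genes 33.2% were called positive, 37.1% negative and 70.3% in either direction. The 8 genes were chosen with earlier results of these data known, so their count describes and does not test. The mean log ratios ran from 3.91 for Cr2 to 0.37 for Ebf1, with a median of 1.92, while the median over all genes was -0.03. The group was uneven: 6 genes had mean ratios of 1.76 or more, whereas Spib and Ebf1 lay at 0.69 and 0.37. Each of the 8 genes was positive on all 3 arrays, Ebf1 as the mean of 2 probes, and so were 39.0% of all genes.

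**Figure D1:**
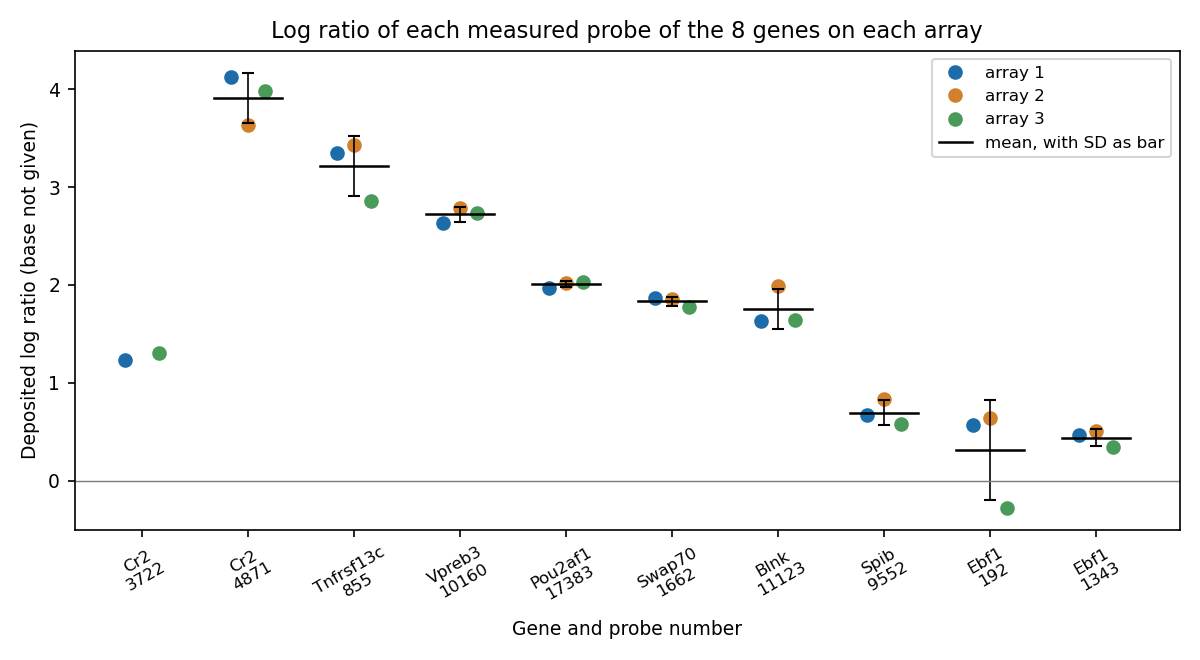
Deposited log ratio (vertical axis, base not given) of the 10 probes of the 8 genes measured on at least 1 array, by gene and probe number. Points are single arrays, lines and bars the mean and SD over 3 arrays. Cr2 probe 4871 sits highest, between 3.63 and 4.13, and array 3 of Ebf1 probe 192 is the only point below 0.

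Among the receptors, Cr2, the complement receptor of B cells and follicular dendritic cells, had the highest ratio as reported, though not under each other setting. Its probe 4871 gave log ratios of 4.13, 3.63 and 3.98 on arrays 1 to 3. The 3 values lay far above 0 and array 2 was the lowest. The mean was 3.91 ± 0.26 (SD, n = 3; 95% interval 3.68 to 4.15; adjusted p = 1.66e-07), which is 15.1-fold if the base is 2 and 50.1-fold if the logs are natural. It ranked 28 among the 6077 genes, and 0.444% of genes had a higher mean.

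Cr2 had further probes that gave another picture. Probe 3722 gave 1.23 on array 1 and 1.30 on array 3 and was at 0 on array 2. Probe 13259, annotated with the same transcript record as probe 4871, was at 0 on all 3 arrays. The ratio of probe 3722 was thus well below that of probe 4871 on both arrays where both were measured. Averaging in probe 3722 lowered the gene's mean to 2.98 (adjusted p = 1.32e-05), with array 2 still resting on probe 4871 alone at 3.63. Reading each 0 as a value lowered the gene's mean to 1.59 (adjusted p = 0.0192). The direction and the call were kept in both cases, but Cr2 then lay below Tnfrsf13c (3.21). With each 0 read as a value it also lay below Blnk (1.76). With a running median over the probes within 5 probe numbers subtracted, Cr2 had 2.98, below Tnfrsf13c (3.23) and Vpreb3 (3.07). Which part of the transcript each probe reads is not known here.

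Tnfrsf13c, the receptor for the survival factor BAFF, had log ratios of 3.35, 3.43 and 2.86. Arrays 1 and 2 lay close together and array 3 lower. The mean was 3.21 ± 0.31 (SD, n = 3; 95% interval 2.94 to 3.48; adjusted p = 6.03e-07), or 9.26-fold in base 2 and 24.8-fold in natural logs. Its SD was larger than that of 94.6% of genes or equal to it. On array 3 the probes within 5 probe numbers of this one also lay below their own means, by a median deviation of -0.22. With a running median over these neighbours and the probe itself subtracted, the mean was 3.23. The cause of the lower value on array 3 was not tested.

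Vpreb3, a protein related to the surrogate light chain that is made in B cells, had log ratios of 2.63, 2.79 and 2.74. The arrays were within 0.15 of each other. Its mean was 2.72 ± 0.078 (SD, n = 3; 95% interval 2.57 to 2.88; adjusted p = 1.28e-07), which is 6.59-fold in base 2 and 15.2-fold in natural logs. Vpreb1, which encodes a surrogate light chain component of the pre-B cell receptor and was the only measured gene of 10 in its list, was lower at 0.42 ± 0.11 (SD, n = 3; adjusted p = 0.00128). Its probes 6400 and 16624 had means of 0.28 and 0.56, and its probe 13538 was at 0 on all 3 arrays. With 0 kept the mean of Vpreb1 was 0.28.

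Of the signalling genes, Blnk encodes the adaptor that links the kinase Syk to downstream enzymes. Its log ratios were 1.63, 1.99 and 1.64, so arrays 1 and 3 agreed closely and array 2 was higher. The mean was 1.76 ± 0.21 (SD, n = 3; 95% interval 1.55 to 1.96; adjusted p = 3.15e-06), or 3.38-fold in base 2 and 5.79-fold in natural logs. Swap70, a protein of activated B cells that acts on Rac and the actin cytoskeleton, had log ratios of 1.86, 1.86 and 1.78. The 3 arrays were nearly equal, with a mean of 1.83 ± 0.048 (SD, n = 3; 95% interval 1.68 to 1.98; adjusted p = 5.54e-07), or 3.56-fold and 6.24-fold.

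Among the transcription genes, Pou2af1, the octamer coactivator also called OCA-B, had log ratios of 1.97, 2.02 and 2.03. This was the tightest of the 8 genes, with an SD that only 5.92% of genes matched or undercut. Its mean was 2.01 ± 0.031 (SD, n = 3; 95% interval 1.86 to 2.15; adjusted p = 3.36e-07), which is 4.02-fold in base 2 and 7.45-fold in natural logs. Spib, an Ets family factor of B cells and plasmacytoid dendritic cells, had log ratios of 0.67, 0.83 and 0.58. These were positive on each array and well below the 6 genes above. The mean was 0.69 ± 0.13 (SD, n = 3; 95% interval 0.52 to 0.87; adjusted p = 0.000116), or 1.62-fold in base 2 and 2.00-fold in natural logs. Tested against a 1.5-fold change in base 2, Spib did not pass (adjusted p = 0.350).

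Ebf1, an early B lineage factor that stromal and fat cells also use, was the least certain of the 8. Probe 1343 gave 0.47, 0.51 and 0.34, with a mean of 0.44 ± 0.086 (SD, n = 3; adjusted p = 0.00131 over the probes). Probe 192 gave 0.57, 0.64 and -0.28, with a mean of 0.31 ± 0.51 (SD, n = 3), and did not pass (adjusted p = 0.152). Both probes were alike on arrays 1 and 2 and took opposite signs on array 3. The neighbours of probe 192 deviated on array 3 by a median of -0.013. The cause of its lower value on array 3 was not tested. Averaged, the gene stood at 0.52, 0.57 and 0.03, with a mean of 0.37 ± 0.30 (SD, n = 3; 95% interval 0.11 to 0.64; adjusted p = 0.0185). This call ended without array 1 (adjusted p = 0.109), without array 2 (0.0801), with the unmoderated test (0.210) and with 0 kept as a value elsewhere in the table (0.188). Without array 3 the mean was 0.55 and the call was kept. That moderated fit gave far smaller p-values (adjusted p = 2.38e-219 for Cr2, against 5.17e-06 without array 1). For the genes named here, the adjusted p of that fit followed the size of the mean and not each gene's own spread. Vpreb3 (2.63 and 2.79 on arrays 1 and 2) had 5.10e-112. Ebf3, described below (-2.24 and -3.16), had 4.28e-111. The calls without array 3 are therefore not alike in strictness to those without array 1 or 2. With a running median over 20 probe numbers subtracted the mean of Ebf1 was 0.61. Of the 9 probes measured on all 3 arrays, probe 192 was the only one not called, while 32.3% of all probes were called positive and 68.3% in either direction.

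**Figure D2:**
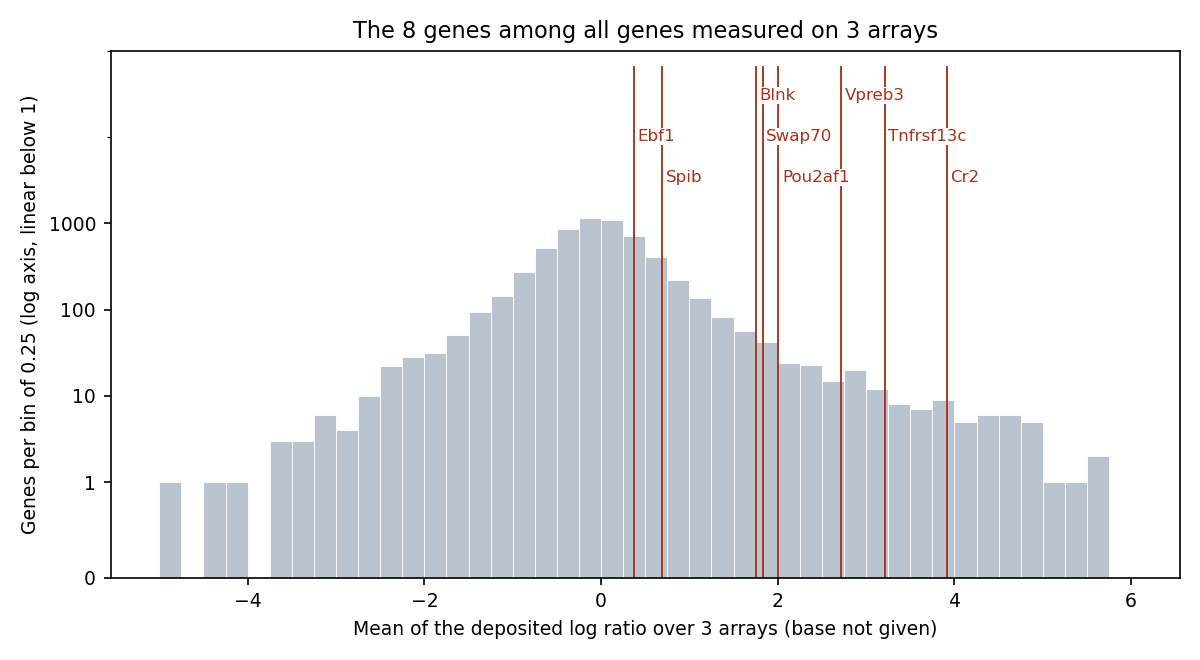
Number of genes (vertical axis, log above 1) by mean log ratio over 3 arrays (horizontal axis, bins of 0.25, base not given) for the 6077 genes measured on all 3 arrays, with the 8 genes as vertical lines. Cr2 at 3.91 lies in the upper tail, and Ebf1 at 0.37 lies in the body of the distribution.

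In the order of mean log ratios, Cr2 ranked 28 of 6077 genes, Tnfrsf13c 53, Vpreb3 84, Pou2af1 142, Swap70 171 and Blnk 186. Spib ranked 741 and Ebf1 1388. The ranks of Cr2 on single arrays were 26, 38 and 24, while those of Ebf1 were 1073, 1000 and 2740. Of neighbours in this order, Swap70 and Blnk were the 1 pair whose values overlapped: Blnk was higher on array 2, and their difference was 0.08 ± 0.19 (SD, n = 3). The other 6 neighbouring pairs did not overlap. Their smallest difference was 0.18 ± 0.074 (SD, n = 3), between Pou2af1 and Swap70, and the largest was 1.06 ± 0.10 (SD, n = 3), between Blnk and Spib. The order changed with the setting. Swap70 lay above Pou2af1 with running medians over 5 (1.90 against 1.74) and 20 probe numbers (1.86 against 1.77) subtracted. Cr2 fell below Tnfrsf13c in the settings given above. Differences between genes were not tested, and since probes respond differently the order is one of ratios and not of RNA levels.

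The 8 genes did not share 1 direction of array effect. Array 2 held the highest value of 5 of the 8 genes, array 1 of 2 and array 3 of 1. Array 3 held the lowest value of 4 genes, array 1 of 3 and array 2 of 1. The mean deviation of the 8 genes from their own means was 0.03, 0.08 and -0.11 on arrays 1 to 3, while the median deviation over all genes lay between -0.001 and 0.009.

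Genes linked to the 8 by role were taken from lists, and the annotation used here names only some of their members. For these lists and the marker lists below, measured means measured on all 3 arrays. Of 38 genes of B cell receptor signalling 9 were measured on all 3 arrays, of which 7 were positive and 2 negative, with a median of 0.45. Syk, the kinase upstream of Blnk, had log ratios of 3.20, 3.08 and 3.08 (mean 3.12 ± 0.068, SD, n = 3), well above Blnk on each array. Nfatc1, a transcription factor activated by calcium signals, had a mean of 1.94 on 1 of its 3 probes (0.65 with 0 kept), and Prkcb, a kinase downstream of the receptor, had 1.16. Cd81, a tetraspanin that joins Cr2 in the B cell co-receptor complex and is found on many cell types, was negative with log ratios of -1.52, -1.26 and -1.47 over 4 probes. Cr2 and Cd81 therefore lay on opposite sides of 0. Btk and Fcgr2b were listed at 0 on all 3 arrays and were named after their values were seen.

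Of 31 genes of B cell surface, survival and migration 3 were measured on all 3 arrays, and all 3 were positive. On fewer arrays, Cd74 was positive where it had a value and S1pr1 had 0.81 on array 1. Cd24a had -0.13 and 0.04 on arrays 1 and 2. Ms4a1, the B cell surface protein CD20, had log ratios of 3.54, 3.45 and 3.60, between those of Cr2 and Tnfrsf13c in mean (3.53 ± 0.072, SD, n = 3). It was also the only measured gene of 7 B cell markers. Tnfsf13, the ligand APRIL of the BAFF family, had a mean of 0.74 (0.49 with a running median over 5 probe numbers subtracted). The co-stimulatory ligand Cd80 had 0.33, and its call ended with running medians over 5 and 20 probe numbers subtracted (0.05 and 0.06, adjusted p = 0.134 and 0.323).

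Of 36 B cell transcription factor genes 11 were measured, 7 with a positive call, 3 with a negative one and 1 without a call, at a median of 0.44. Mef2c, a factor needed for B cell proliferation, had a mean of 1.84 ± 0.097 (SD, n = 3). Ikzf3, the Ikaros relative Aiolos, had 1.58 ± 0.027 (SD, n = 3), and Foxo1, a regulator of B cell development and homing, had 1.52 ± 0.092 (SD, n = 3). These SDs are between arrays, and the averaged probes differed more. The probes of Mef2c had means of 1.22, 1.62 and 2.68, those of Ikzf3 2.16 and 1.00, and those of Foxo1 1.11 and 1.93. Ebf3, a relative of Ebf1, was negative with log ratios of -2.24, -3.16 and -1.68, and its values did not overlap those of Ebf1. Its mean of -2.36 ± 0.75 (SD, n = 3; adjusted p = 1.00e-04) did not pass the unmoderated test (adjusted p = 0.0620).

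**Figure D3:**
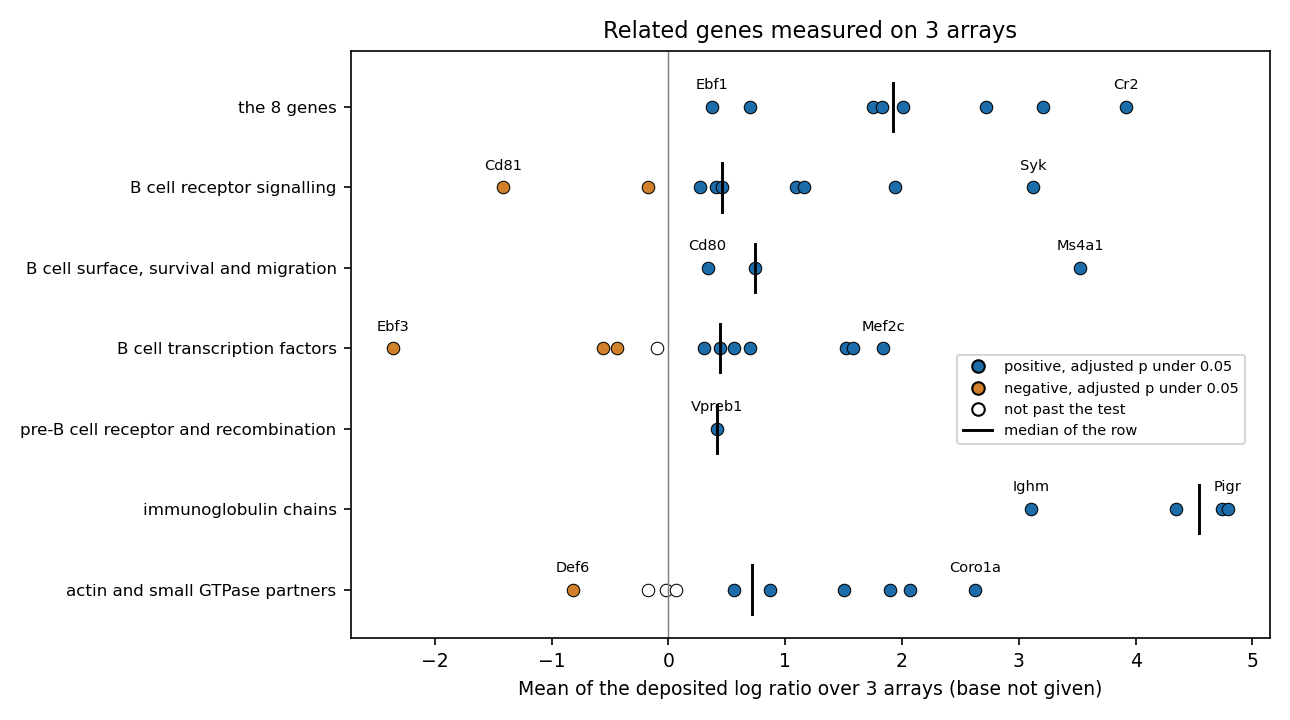
Mean log ratio over 3 arrays (horizontal axis, base not given) of the 8 genes and of the measured genes of 6 lists (rows). Each point is a gene, filled by its call, and the bar is the row's median. The 8 genes lie on the positive side from Ebf1 to Cr2, while the signalling and transcription factor rows hold genes of both signs, with Cd81 and Ebf3 lowest.

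All 4 measured genes of 10 in the immunoglobulin list were positive. They were Pigr, which carries immunoglobulin across epithelia and is no chain itself (4.79), the IgA heavy chain Igha (4.74), the light chain Iglv1 (4.35, and 1.49 with adjusted p = 0.0529 with 0 kept) and the IgM heavy chain Ighm (3.11, and 2.02 with a running median over 5 probe numbers subtracted). Their median of 4.54, with Pigr counted, lay above each of the 8 genes, but Ighm lay below Cr2 (3.91) and Tnfrsf13c (3.21). Related immunoglobulin genes can share a probe. Of 15 actin and small GTPase partners, among which Swap70 acts, 10 were measured, 6 with a positive call, 1 with a negative one and 3 without a call. The actin regulator Coro1a had a mean of 2.62, the blood cell GTPases Rhoh and Rac2 had 2.07 and 1.90, and the GTPase inhibitor Arhgdib lay below these among the positive genes. The negative gene was Def6, a relative of Swap70, with log ratios of -0.82, -0.91 and -0.74 (adjusted p = 3.18e-05), named after its values were seen. Its values did not overlap those of Swap70. Over these lists without the actin partners, 22 of 28 measured genes were positive and 5 negative, with a median of 0.63, against 33.2% of all genes positive and a median of -0.03. These lists were drawn up with earlier results known, so the counts describe and do not test.

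Markers of other blood and immune cells were mostly positive as well. Of 8 T cell markers 5 were measured, 4 positive and 1 negative, with a median of 2.24, led by Cd8a (3.88), Cd247 (2.91), Cd4 (2.24) and Cd3g (1.73). The negative one was Cd3d, of the same receptor complex as Cd3g, at -0.85 ± 0.059 (SD, n = 3; adjusted p = 2.25e-05), named after its value was seen. The macrophage iron exporter Slc40a1, 1 of 6 markers measured on all 3 arrays, had 4.24, and the macrophage marker Cd68 had -0.07 on array 3 alone. Of 6 erythroid markers 4 were measured on all 3 arrays and these were positive: Hba-a1 (3.22, and 2.14 with 0 kept), Hbb-bs (2.64), Slc4a1 (1.72, and 0.86 with 0 kept) and Epor (0.95, and 1.56 for its highest probe). The erythroid marker Alas2 was measured on array 1 alone and was negative there (-0.63). For follicular dendritic cells, which also carry Cr2, 0 of 6 markers were measured, and Cxcl13 and Vcam1 were listed at 0. For plasmacytoid dendritic cells, which also carry Spib, 3 of 6 were measured: Ccr9 (0.82) and Bst2 (0.31) were positive, and Tcf4 had -0.10 with adjusted p = 0.196 (-0.36 for its lowest probe, adjusted p = 0.00285). The probes of Tcf4 differed in sign. In the fit over the probes, probe 9774 was called positive at 0.26 (adjusted p = 0.0105) and probe 9138 was not called at -0.19. For stromal and fat cells, which also carry Ebf1, 2 of 8 were measured, Pdgfra at -1.19 (-0.55 with 0 kept) and Pdgfrb at 0.61 (0.40 with a running median over 20 probe numbers subtracted). The plasma cell factor Xbp1, 1 of 6 markers measured, had 0.44, and its call ended with a running median over 5 probe numbers subtracted (0.15, adjusted p = 0.122) and in the unmoderated test (0.0513). That of Bst2 ended with 0 kept (0.0879) and in the unmoderated test (0.117). The part of these cells in the ratios of the 8 genes was not tested.

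For each of the 8 genes the gene with the most alike values was sought among 5077 named genes, as the smallest Euclidean distance over the 3 log ratios. The nearest to Cr2 was the platelet lectin Clec1b at a distance of 0.27, and the nearest to Tnfrsf13c was the kinase Src at 0.21. Vpreb3 was nearest to Marchf2 (0.071), Pou2af1 to Vtn (0.041) and Swap70 to the RNA sensor Ifih1 (0.056). Blnk was nearest to the red cell anion exchanger Slc4a1 (0.072), Spib to Zpbp2 (0.042) and Ebf1 to Dmac2 (0.082). Since the arrays repeat 1 comparison, this likeness is mainly one of ratio size.

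**Figure D4:**
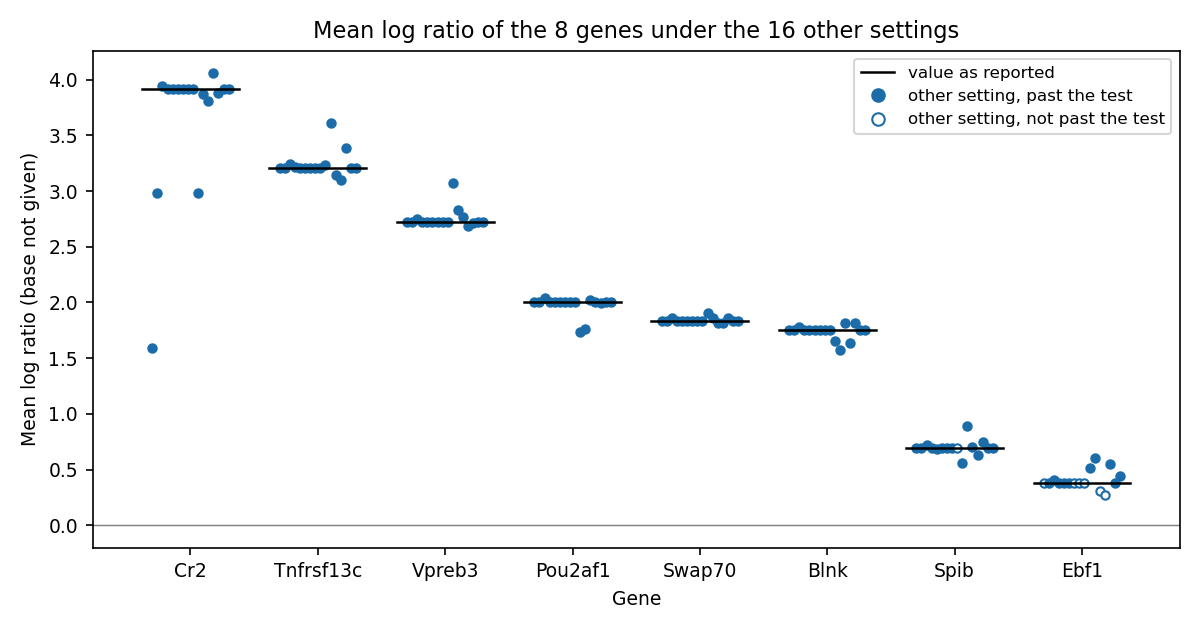
Mean log ratio (vertical axis, base not given) of each of the 8 genes as reported (line) and under 16 other settings (points, open where the gene did not pass that setting's test). Cr2 ranges from 1.59 to 4.06, the open points belong to Ebf1 and Spib, and no mean falls below 0.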

How the data were processed

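Per the labels, spleen cRNA in Cyanine-5 and reference cRNA in Cyanine-3 were hybridised together on 3 arrays. The authors deposited 1 signed log ratio per probe and array. The sources used here do not state the image processing, background correction, normalization or log base, and the number of arrays limits the precision. Log2 was assumed when the tests were planned, and values were tested as deposited. Exact zeros were treated as missing. Names came from the platform annotation (12336 probes with 1 symbol). Probes measured on all 3 arrays (11086) were averaged into 6077 genes, and limma 3.58.1 (R 4.3.3) tested each mean against 0 at an adjusted p under 0.05, after a check on simulated data. Related genes are the up to 4 per list with the largest absolute mean. The members, lists and settings were chosen with earlier results of these data known. Other settings changed the handling of 0, the normalization, the test, the combination of probes and the arrays used. Promoter windows came from RefSeq (GRCm38.p6). Figures used matplotlib 3.10.9.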

Additional observations from a re-analysis of the deposited data

How the results depend on the processing

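The 8 genes kept a positive mean under each of the 16 other settings, and 6 to 8 of them were called. Cr2, Tnfrsf13c, Vpreb3, Pou2af1, Swap70 and Blnk were called in each. Spib lost its call only against a 1.5-fold change in base 2, and Ebf1 in 6 settings, among them an adjusted p under 0.01 and the 1.5-fold test (adjusted p = 1). At the probe level 6 to 9 probes of the 8 genes were called. As reported it was 8 of 9, beside 68.3% of all probes. Against a 1.5-fold change it was 6 of 9, with 0 kept 8 of 11, and with probes measured on at least 2 arrays 9 of 10. The share over all probes was not counted under the other settings. Over all genes 4270 were called, 2770 in the unmoderated test and 1208 against a 1.5-fold change, where 14 of 28 related genes were called in place of 27. Of the genes named with values by the rule, Tnfsf13, Cd80, Vpreb1 and Xbp1 and the markers Bst2 and Pdgfrb lost their call against a 1.5-fold change, and other related genes that lost it are not named. Tcf4 passed with 0 kept (-0.07, adjusted p = 0.0366) and with a running median over 5 probe numbers subtracted (-0.11, adjusted p = 0.0434). Without array 1, 2 or 3 the 8 genes had 7, 7 and 8 calls, beside 3660, 4151 and 3830 calls among all 6077 genes. The fit without array 3 gave far smaller p-values for the 8 genes, so its calls are not alike in strictness to the others. The causes of these changes were not tested. No paired analysis was possible because the arrays form 1 group. Signal over background is unknown, since no intensities were analysed here.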
